A study of Mus musculus with 127 samples.

Results

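The difference between the synaptic and the nuclear transcriptome of the adult mouse cortex was compared between genotypes of a conditional Chd8 line. Animals were taken if the fraction count table held a nuclear and a synaptic library of the same animal under 1 genotype label, which gave 24 libraries of 12 animals, of 127 libraries in the whole series and 27 fraction libraries of the conditional line. All 12 animals are labelled Camk2a-CRE, and genotypes are given by label. No Cre read was found in either library of HET male replicate 1. HET animals are Camk2a-CRE Chd8+/flox (5 animals, 3 females and 2 males), HOM animals are Camk2a-CRE Chd8flox/flox (3 animals, 1 female and 2 males) and WT animals are Camk2a-CRE Chd8+/+ (4 animals, 2 females and 2 males), so the controls carry the recombinase too. Cortex was collected at about 60 days of age and frozen, split with a synaptosome reagent and a nuclear extraction reagent, and poly(A) RNA of each fraction was sequenced. The protocol text for the fractionation names germline mutants and their littermates, and the same text is attached to these libraries.

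CHD8 is an ATP-dependent chromatin remodeller of the chromodomain helicase family, which binds promoters of many active genes, and heterozygous loss-of-function mutations in the human gene are among the most frequent single-gene causes of autism. Camk2a-Cre recombines floxed alleles in excitatory neurons of the postnatal forebrain, while glia, vessel cells and most interneurons keep both alleles. A synaptosome preparation is enriched for pinched-off nerve terminals with attached postsynaptic membrane, where RNAs for synaptic proteins are stored and translated, and a nuclear preparation holds pre-mRNA, retained long non-coding RNA and mRNA waiting for export. For each animal the synaptic minus nuclear log2 CPM (counts per 1 M counts, scaled by TMM) was taken, and the difference of this quantity between genotypes is the interaction of compartment and genotype. It asks whether the loss of Chd8 shifts an RNA between compartments, apart from any change in its overall level.

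Libraries held 24.7 to 56.2 M reads assigned to genes. Cre reads were found in 22 of the 24 libraries, at 52 to 332 reads. The exception goes against its label: HET male replicate 1 had 0 Cre reads in both libraries, which allows up to 0.0534 Cre CPM in its synaptic and 0.0558 in its nuclear library (3 reads of the total, counting error only), against lowest values of 1.43 and 4.69 CPM in the synaptic and nuclear libraries of the other HET animals. HET values of Chd8, of the gene counts and of the gene lists are therefore also given without this library pair. The levels of the sex-linked genes Xist and Ddx3y matched the labelled sex in all 24 libraries. The rule leaves out an animal whose nuclear library is labelled HET and whose synaptic library is labelled HOM, and an animal with a synaptic library alone. In bulk fractions, fewer cells of a type and less RNA per cell cannot be told apart.

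The 2 fractions differed in the direction their names give. In WT animals 6185 of 21577 genes (28.7%) were higher in the synaptic fraction and 7087 (32.8%) were higher in the nuclear fraction (edgeR, adjusted p under 0.05). Malat1, a long non-coding RNA of nuclear speckles, was lower in the synaptic fraction in every animal. Its synaptic minus nuclear difference was -1.67, -3.43, -2.40, -1.49 and -3.72 in HET animals, -2.92, -2.82 and -4.44 in HOM animals and -2.20, -3.55, -3.98 and -3.96 in WT animals (here and below, log2, females before males and by replicate number). Camk2a, the kinase mRNA known to be carried into dendrites, was higher in the synaptic fraction in every animal, by 0.47, 1.27, 0.54, 0.20 and 0.38 in HET, 0.82, 0.49 and 0.78 in HOM, and 0.52, 0.94, 0.86 and 1.06 in WT animals. In WT animals the fitted difference was -3.44 for Malat1 (adjusted p = 5.97e-08), -2.98 for the imprinted nuclear RNA Meg3 (adjusted p = 5.06e-09) and 0.85 for Camk2a (adjusted p = 6.05e-05).

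Synaptic gene groups stood on the synaptic side in WT animals. Of 22 mRNAs known to be carried to dendrites 22 were higher in the synaptic fraction, of 54 presynaptic genes 49, of 46 genes of excitatory postsynaptic sites 41 and of 23 genes of inhibitory synapses 23. All 15 mitochondrially encoded transcripts were higher there too, with a median of 1.33. On the nuclear side stood 14 of 18 nuclear-retained RNAs (3 were higher in the synaptic fraction) and 44 of 62 splicing factor genes. Marker genes of other cells took part in this axis: all 16 microglial markers were higher in the synaptic fraction with a median of 1.25, and all 22 markers of blood vessel cells were higher in the nuclear fraction, with a median of -3.18. The fractions therefore differ in markers of cell types as well as of compartments, and the size of this difference varied between animals for vessel markers.

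Chd8 itself (ENSMUSG00000053754, minus strand of chromosome 14, chr14:52198151-52257780 in GRCm38) was measured in every library. In the synaptic fraction it stood at 58.1, 49.1, 60.5, 79.1 and 68.7 CPM in HET animals, at 34.6, 70.8 and 59.2 CPM in HOM animals and at 78.8, 77.1, 62.98 and 72.6 CPM in WT animals. In the nuclear fraction it stood at 79.1, 81.1, 79.9, 78.0 and 77.8 CPM in HET animals, at 43.9, 65.7 and 80.2 CPM in HOM animals and at 77.5, 100.5, 82.0 and 86.2 CPM in WT animals. The groups overlapped in the synaptic fraction, and HOM male replicate 2 lay within the WT range of the nuclear fraction. The mean was 63.1 ± 11.4 CPM in HET (86.5% of WT), 54.9 ± 18.5 CPM in HOM (75.3% of WT) and 72.9 ± 7.11 CPM in WT synaptic libraries (SD, n = 5, 3 and 4). In nuclear libraries it was 79.2 ± 1.37 CPM in HET (91.5% of WT), 63.3 ± 18.3 CPM in HOM (73.1% of WT) and 86.6 ± 9.96 CPM in WT animals. Without the HET male that has no Cre read, the HET mean was 59.1 ± 8.09 CPM in the synaptic and 79.5 ± 1.39 CPM in the nuclear fraction (SD, n = 4).

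Within a fraction, with sex as a covariate, the HOM minus WT estimate for Chd8 was -0.51 (SE 0.17, adjusted p = 0.937 in edgeR) in the synaptic and -0.48 (SE 0.16, adjusted p = 0.418) in the nuclear libraries, and the HET minus WT estimates were -0.20 and -0.10. None passed the adjusted test, and the 2 HOM values (0.937 and 0.418 in edgeR) equal the smallest adjusted p of any gene in their comparison. Because cells outside the Cre lineage keep Chd8, and because counts cover the whole gene rather than the floxed exons alone, these values are no measure of recombination in the targeted neurons. An antisense gene, Gm26590, overlaps an exon of Chd8, and without a stated strand setting their reads cannot be separated.

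The per-animal synaptic minus nuclear difference of Chd8 was -0.45, -0.72, -0.40, 0.02 and -0.18 in HET animals, -0.34, 0.11 and -0.44 in HOM animals and 0.02, -0.38, -0.38 and -0.25 in WT animals. The groups overlapped, but the 3 HET females and HOM male replicate 2 lay below every WT animal. In each group 1 animal lay above 0, which in HET was the male with no Cre read. The group means were -0.35 ± 0.28 in HET, -0.22 ± 0.29 in HOM and -0.25 ± 0.19 in WT animals (SD). The interaction estimate was -0.10 for HET minus WT (SE 0.16, 95% interval -0.43 to 0.23) and 0.02 for HOM minus WT (SE 0.18, 95% interval -0.36 to 0.40). In exact two-sided permutation tests the HET mean difference gave p = 0.556 and the HOM mean difference p = 0.857, both 0.857 after adjustment over the 2 tests, where the smallest possible values are 0.00794 and 0.0286. Without the animal that has no Cre read the HET mean difference was -0.19 (exact permutation p = 0.286). The sign of the HOM estimate changed with the animals: it stood at -0.21 without HOM male replicate 1 and at 0.13 without HOM male replicate 2.

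**Figure D1:**
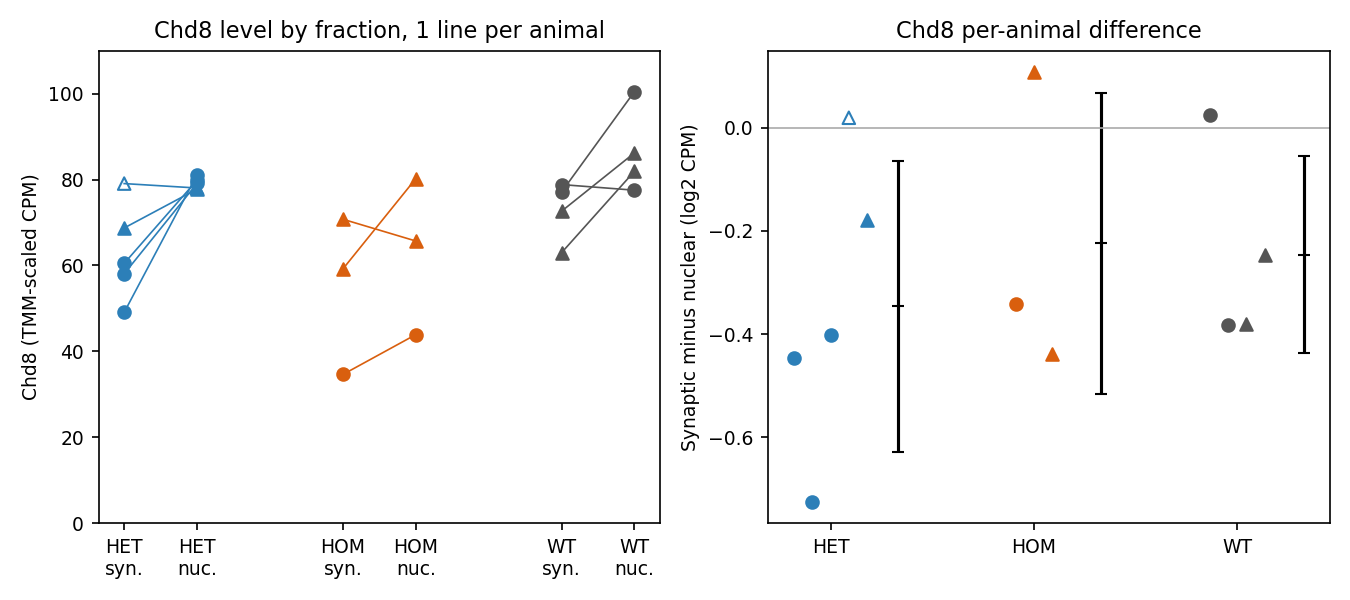
Chd8 in the 12 animals. Left, TMM-scaled CPM of the synaptic and nuclear library of each animal, joined by a line (circles female, triangles male, hollow symbol the HET male with no Cre read). Right, the synaptic minus nuclear log2 difference of each animal with the group mean and SD, which overlap across HET (-0.35 ± 0.28), HOM (-0.22 ± 0.29) and WT (-0.25 ± 0.19).

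Across the transcriptome no gene passed the test of the interaction. With edgeR and adjustment over 21577 genes, 0 genes (0%) were called in HET minus WT, in HOM minus WT and in HOM minus HET, and 0 in the trend over 0, 1 and 2 floxed alleles. The smallest adjusted p was 1 in HET minus WT, 0.891 in HOM minus WT and 1 in HOM minus HET. At an unadjusted p under 0.05 there were 625 genes in HET minus WT (415 higher, 1.92%, and 210 lower, 0.973%), 1029 in HOM minus WT (1.93% of all genes higher, and 613 genes lower, 2.84%), 959 in HOM minus HET and 1060 in the trend, all fewer than the 1 in 20 that an even spread of p-values gives. DESeq2 called 0 genes in each of these comparisons too, with 757, 1147, 1107 and 1154 genes at an unadjusted p under 0.05, and limma on the per-animal differences called 0 in HET minus WT (907) and HOM minus WT (1180). In both tools the HET minus WT count was below 1 in 20 and the other counts given here were above it. Without the HET male that lacks Cre reads, 0 genes were called in HET minus WT (613 at an unadjusted p under 0.05). The only setting that called genes in HET minus WT or HOM minus WT was a fit with no filter on low counts, which called 10 and 8 genes.

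How large a shift these animals could have shown differs by expression level. The 95% interval of the interaction lay within ± 1 log2 for 59.7% of genes in HET minus WT and for 56.3% in HOM minus WT. Among the 5967 genes with a mean log2 CPM of at least 5 it did so for 99.5% and 98.9%, with a median half-width of 0.31 and 0.36. A 2-fold shift between the bulk fractions therefore lies outside the interval for nearly all well expressed genes, while estimates smaller than these half-widths cannot be told from 0. Cells outside the Cre lineage are counted in these fractions too, so the intervals set no bound on a shift within the targeted neurons alone. The median over all genes was -0.0025 in HET minus WT and -0.02 in HOM minus WT, and 49.6% and 47.5% of genes had an estimate above 0. The HET minus WT and HOM minus WT comparisons use the same 4 WT animals, so their values are given side by side and are not independent.

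**Figure D2:**
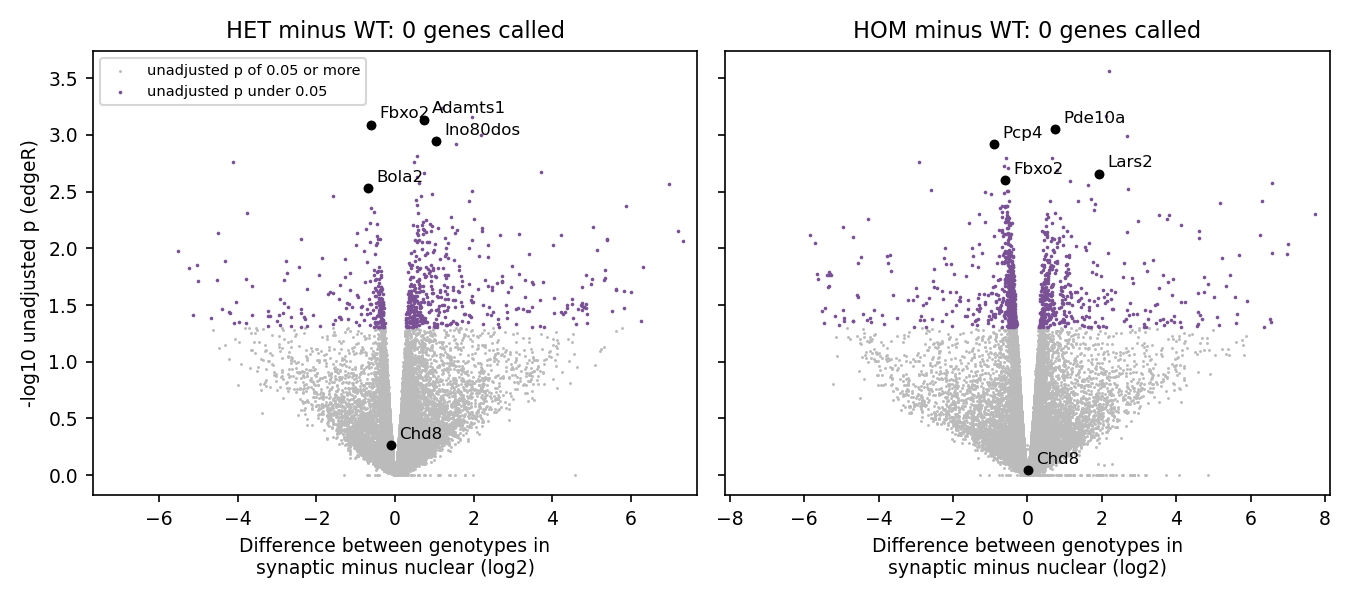
Interaction estimate (log2, x axis) against -log10 of the unadjusted p from edgeR (y axis) for 21577 genes, HET minus WT on the left and HOM minus WT on the right, 1 dot per gene. No gene passes the adjusted threshold in either panel, and Chd8 lies near 0 on both axes (-0.10 and 0.02).

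The genes of smallest p are given as values, not as calls. All of the HET minus WT genes named here have an adjusted p of 1, those of HOM minus WT and of the trend 0.891, and those of HOM minus HET 1. Having been taken for small p, their separation between groups is a description.

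In HET minus WT, Fbxo2 (plus strand, chr4:148160621-148166424), which encodes a glycoprotein-binding adaptor of an SCF ubiquitin ligase, had per-animal differences of 0.10, 0.13, -0.31, -0.59 and -0.38 in HET animals, -0.27, -0.29 and -0.07 in HOM animals and 0.19, 0.40, 0.45 and 0.52 in WT animals. Every HET and every HOM animal lay below every WT animal, which was the case for 0.44% of all genes between HET and WT and 3.38% between HOM and WT. The interaction estimate was -0.60 in HET (SE 0.15) and -0.60 in HOM (SE 0.17). Within the fractions the larger part of the estimate lay on the nuclear side, with -0.16 in HET and -0.23 in HOM synaptic libraries against 0.47 and 0.37 in nuclear libraries. Bola2, which acts in iron-sulfur cluster maturation, showed a like pattern with -0.68 in HET (SE 0.20) and -0.69 in HOM (SE 0.23), but its exons overlap Coro1a and Slx1b on the other strand. The remaining genes on this side were the stress-responsive transcription factor Atf5 (-0.60), Zmynd19 (-0.55) and the extracellular matrix gene Abi3bp (-0.64). Atf5 shares exon sequence with Il4i1 and Nup62 on the other strand.

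In the opposite direction stood Adamts1 (minus strand, chr16:85793827-85803113), a secreted metalloprotease of the extracellular matrix. Its differences were 0.45, 0.34, 0.64, 0.14 and 0.45 in HET animals, 0.19, -0.12 and 0.10 in HOM animals and 0.00, 0.09, -0.52 and -0.86 in WT animals. All 5 HET animals were above all 4 WT animals, as for 0.816% of all genes, and the HOM animals overlapped the WT animals. The estimate was 0.73 in HET (SE 0.18) and 0.38 in HOM (SE 0.21), and without WT male replicate 2 the HET value was 0.55. Ldlrad3, a membrane protein of the LDL receptor family, had estimates of 0.56 in HET (SE 0.15) and 0.51 in HOM (SE 0.17), with differences of -0.33 to 0.17 in HET, -0.13 to -0.11 in HOM and -0.90 to -0.47 in WT animals. The remaining genes were Ino80dos, a non-coding RNA that overlaps exons of Ino80d and Ndufs1 on the other strand (1.03), the ubiquitin ligase gene March7 (0.48) and Itpripl2 (0.75).

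In HOM minus WT, Pde10a (plus strand, chr17:8525372-8986648), a phosphodiesterase that degrades cAMP and cGMP and is most abundant in striatal neurons, had differences of -0.24, -0.25, -0.25, 0.14 and 0.05 in HET animals, 0.32, 0.51 and 0.60 in HOM animals and -0.09, -0.79, 0.20 and -0.41 in WT animals. Each of the 3 HOM animals lay above all WT animals, as for 2.99% of genes, and above all HET animals, as for 1.54% of genes. The estimate was 0.75 in HOM (SE 0.19) and 0.16 in HET (SE 0.17). The level of Pde10a itself varied over a wide range between animals, from 79.8 to 215.2 CPM in HOM and 82.3 to 150.8 CPM in WT synaptic libraries, and from 52.6 to 151.4 CPM in HOM and 109.1 to 147.0 CPM in WT nuclear libraries. The 15 striatal markers, of which Pde10a is 1, summed to 594 to 1190 CPM in HOM and 541 to 983 CPM in WT synaptic libraries and to 293 to 762 CPM in HOM and 336 to 526 CPM in WT nuclear libraries. Their part in the Pde10a value was not tested, and the striatal list as a whole had a HOM minus WT median of -0.28, opposite in sign to Pde10a.

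Me3, the mitochondrial NADP-dependent malic enzyme, had differences of 0.13, -0.28 and -0.53 in HOM animals and -0.59, -1.08, -0.94 and -0.96 in WT animals, with an estimate of 0.67 in HOM (SE 0.18) and 0.08 in HET (SE 0.16). An exon of another gene on the opposite strand overlaps it. Its HOM and WT groups did not overlap, as for 2.99% of all genes in this direction, and without HOM female replicate 1 the estimate was 0.49. Myo1c, an unconventional myosin, stood at 0.81 in HOM (SE 0.23) and 0.20 in HET (SE 0.20), and Clic5, of the chloride intracellular channel family, at 1.15 in HOM (SE 0.33) and 0.66 in HET (SE 0.30). On the lower side, Pcp4 (plus strand, chr16:96467606-96525793), a small calmodulin-binding protein, had differences of 0.40, 0.70, 0.45, 0.45 and 0.41 in HET animals, -0.33, 0.38 and 0.20 in HOM animals and 0.37, 1.02, 1.26 and 1.29 in WT animals. WT female replicate 1 lay within the range of the mutants, and the other 3 WT animals were above all mutants. The Pcp4 estimate was -0.90 in HOM (SE 0.24) and -0.50 in HET (SE 0.21), and without HOM female replicate 1 the HOM value was -0.69. Its exons overlap Igsf5 on the same strand. Fam174a (-0.56), Selenos, a selenoprotein of the endoplasmic reticulum (-0.51), and Lsm4, a subunit of the LSm ring that binds U6 RNA and decapped mRNA (-0.64), completed the lower side together with Fbxo2.

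In HOM minus HET, the 5 genes of smallest p in each direction under the naming rule all had HOM and HET estimates on opposite sides of WT. Taking genes for a large gap between HOM and HET favours this arrangement. Gpr22 (minus strand, chr12:31706867-31713947), an orphan G protein-coupled receptor, had differences of 0.99, 1.10 and 0.90 in HOM, 1.57, 1.95, 1.74, 1.57 and 1.48 in HET and 1.21, 1.70, 1.33 and 1.43 in WT animals. The HOM animals were lowest of all 12, and HOM lay below HET without overlap for 2.1% of all genes. The HOM minus HET estimate was -0.66 (SE 0.15), made up of -0.42 in HOM minus WT and 0.25 in HET minus WT. Manea, a Golgi endomannosidase that trims N-glycans, gave -0.71 (SE 0.16) in the same arrangement, with 0.68, 1.00 and 0.91 in HOM animals and 1.32 to 1.96 in HET animals. C1galt1c1, the chaperone of the enzyme that builds core O-glycans (-0.60), Slc35a5, of the nucleotide sugar transporter family (-0.53), and the testican proteoglycan Spock3 (-0.66) were on the same side. Higher in HOM than in HET stood Mycbp2, a very large ubiquitin ligase of growing axons, with 0.40, 0.42 and 0.22 in HOM, -0.35, -0.54, -0.28, 0.11 and -0.07 in HET and -0.19, -0.17, -0.08 and -0.21 in WT animals (HOM minus HET 0.57). Greb1l (1.02), the kinase gene Sik1 (0.93) and the kinesin gene Kif9 (0.93) were on that side too.

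**Figure D3:**
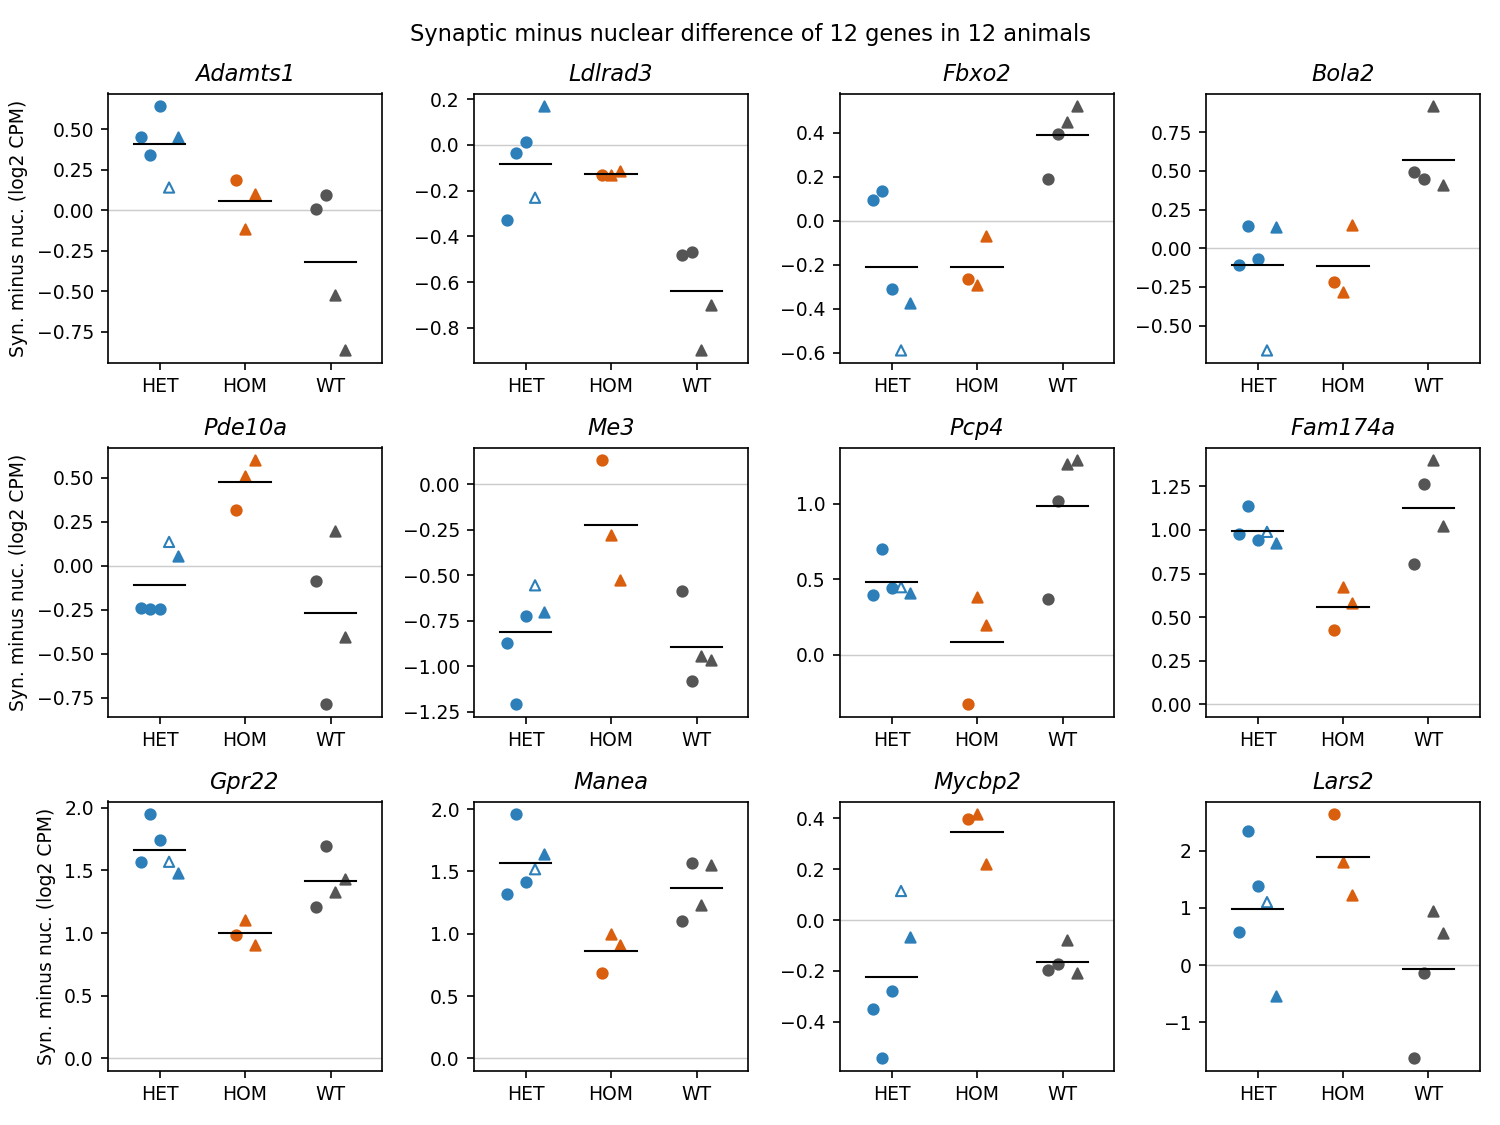
Synaptic minus nuclear log2 CPM of 12 of the genes with the smallest p, 1 symbol per animal and a bar at the group mean (circles female, triangles male, hollow the HET male with no Cre read), each panel with its own y axis. Fbxo2 and Bola2 show HET and HOM below WT, Pde10a and Mycbp2 show HOM above both other groups, and Gpr22 and Manea show HOM below both. None passes the adjusted test.

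Over the trend from 0 to 2 floxed alleles, Pde10a (0.36 per allele), Clic5 (0.58), Myo1c (0.39) and Pcp4 (-0.45) recurred, as did Lsm4 (-0.33) and Fam174a (-0.27). Enoph1, an enzyme of the methionine salvage pathway, stood at -0.26 per allele and Adrb1, the beta adrenergic receptor, at -0.27 per allele. For Adrb1 the differences were 1.46, 1.45, 1.55, 1.15 and 1.10 in HET, 1.15, 0.81 and 1.09 in HOM and 1.33, 1.82, 1.66 and 1.46 in WT animals. HOM lay below WT, as for 3.38% of all genes, and overlapped HET.

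Lars2 (plus strand, chr9:123366927-123462666), the mitochondrial leucyl-tRNA synthetase, had the largest estimate among the genes named in HOM minus WT, at 1.93 (SE 0.55), and stood at 1.02 in HET (SE 0.49). Its differences scattered widely, with 0.59, 2.34, 1.38, 1.10 and -0.54 in HET, 2.64, 1.80 and 1.22 in HOM and -1.63, -0.15, 0.95 and 0.55 in WT animals. Mir6236, a short locus annotated as a miRNA, was on the same side, at 2.70 in HOM minus WT (SE 0.80). So were Gm23935 at 2.11 (SE 0.53) and Gm24187 at 2.67 (SE 0.70), both named after their values were seen. In synaptic libraries the HOM minus WT estimates were -0.26 for Lars2, -0.34 for Mir6236, 0.11 for Gm23935 and 0.14 for Gm24187, against -1.82, -2.30, -1.70 and -2.30 in nuclear libraries, so the larger estimates of these loci were on the nuclear side. Lars2 and Mir6236 were lowest in the same libraries. These were nuclear HOM female replicate 1 (108.4 and 0.55 CPM) and synaptic WT female replicate 1 (339.1 and 2.1 CPM). Whether the reads counted for Lars2 come from the synthetase mRNA was not tested.

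The gene groups are described by the position of their members, beside all 21577 genes, with no test of the group. In all, 27 lists were examined and 0 members of any list were called in either comparison.

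Genes of the respiratory chain encoded in the nucleus, which supply ATP at synapses, stood lower in the synaptic minus nuclear difference in HOM animals. Only 4 of 77 had a HOM minus WT estimate above 0, with a median of -0.24, and 15 were lower at an unadjusted p under 0.05, against 2.84% of all genes. In HET minus WT 10 of 77 were above 0 with a median of -0.15, but without the HET male that has no Cre read the count was 24 of 77 and the median -0.06. Leaving out 1 animal at a time, the HOM median ranged from -0.32 to -0.18. Ndufa5, of complex I, stood at -0.55 (SE 0.20) and Cox4i1, of complex IV, whose exons overlap a gene on the opposite strand, at -0.44 (SE 0.17) in HOM minus WT. The mean over the list was 0.28, 0.45, 0.12, -0.14 and 0.29 in HET animals, -0.01, 0.12 and 0.19 in HOM animals and 0.10, 0.47, 0.22 and 0.52 in WT animals. HOM animals lay at the lower end of the WT range and overlapped it. Within synaptic libraries 29 of 77 members had a HOM minus WT estimate above 0 (median -0.03), and within nuclear libraries 75 of 77 (median 0.22).

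Ribosomal protein genes had a HOM minus WT median of -0.23 with 8 of 82 above 0 (47.5% of all genes) and 9 lower at an unadjusted p under 0.05 (2.84% of all genes), and a HET minus WT median of -0.15 with 7 of 82 above 0. Without the animal that has no Cre read the HET median was -0.08 with 22 of 82 above 0, and without HET female replicate 2 it was -0.24. Without WT male replicate 2 the HOM median was -0.15. Rps14 stood at -0.52 (SE 0.17) in HOM minus WT. Unlike the respiratory chain, these genes were lower in HOM on the synaptic side, where the median was -0.16 with 11 of 82 above 0, against 0.07 with 56 of 82 in nuclear libraries. Of the 15 mitochondrially encoded transcripts 2 were above 0 in HOM minus WT (median -0.21) and 4 in HET minus WT (median -0.09), with mt-Nd3 at -0.63 in HOM (SE 0.23). Without the animal that has no Cre read the HET value changed sign, to a median of 0.04 with 9 of 15 above 0, and without WT female replicate 1 it was -0.22. The HOM median was -0.38 without HOM male replicate 2. Many ribosomal protein genes have processed copies in the genome, and the sources used here do not say how reads shared with them were counted.

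Among synaptic genes, the presynaptic, dendritic and inhibitory lists had HOM medians of this difference near those of the respiratory chain, and the excitatory postsynaptic list did not. Presynaptic genes, of vesicle release and its machinery, had a median of -0.13 in HET minus WT (7 of 54 above 0, and 18 of 54 without the animal that has no Cre read, median -0.07) and -0.19 in HOM minus WT (6 of 54). Without HET female replicate 2 the HET median was -0.21, and the HOM median was -0.12 without WT male replicate 2 and -0.30 without HOM male replicate 2. Unc13a, which primes vesicles for release, stood apart from them at 0.46 in HOM (SE 0.19), though its exons overlap a gene on the opposite strand. The dendritic mRNAs had a median of -0.23 in HET (5 of 22 above 0) and -0.22 in HOM (2 of 22), with the neurotrophin gene Bdnf at 0.01 in HET and -0.46 in HOM (SE 0.18). Their HET median was -0.12 (6 of 22 above 0) without the animal that has no Cre read and -0.37 without HET female replicate 2, and their HOM median was -0.34 without WT female replicate 1. Genes of inhibitory synapses had a median of -0.01 in HET (11 of 23 above 0) and -0.20 in HOM (2 of 23), with the GABA-A receptor subunit Gabra5 at -0.40 (SE 0.17) in HOM. In HET 17 of 23 were above 0 without the animal that has no Cre read (median 0.04), and without HOM male replicate 1 the HOM median was -0.12. Bdnf and Gabra5 each overlap an exon of a gene on the opposite strand. Genes of excitatory postsynaptic sites had medians of 0.02 in HET (0.06 without the animal that has no Cre read) and -0.06 in HOM, and voltage-gated channels 0.01 in HET (0.02 without that animal) and -0.07 in HOM. Both lists changed sign in HET when HET female replicate 2 was left out (-0.06 and -0.06). Within synaptic libraries the HOM minus WT median was 0.11 for presynaptic, 0.05 for inhibitory and -0.02 for dendritic genes. There 45 of 54, 18 of 23 and 9 of 22 members were above 0. Within nuclear libraries these medians were 0.33, 0.24 and 0.17, with 50 of 54, 21 of 23 and 18 of 22 above 0.

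Activity-induced immediate early genes, which neurons transcribe within minutes of firing, stood lower in the synaptic minus nuclear difference in HET animals. In HET minus WT 2 of 20 were above 0 with a median of -0.37, and 6 were lower at an unadjusted p under 0.05, against 0.973% of all genes. Without the animal that has no Cre read these values were 3 of 20, -0.37 and 8. Fosb stood at -0.74, Sik1 at -0.64, Fosl2 at -0.55, Egr3 at -0.50, Egr1 at -0.48 and Junb at -0.36 (Fosb, Fosl2, Egr1 and Egr3 were named after their values were seen). In HOM minus WT the median was -0.05 with 10 of 20 above 0, and Per1 stood at 0.53. The mean over the list was 0.20, -0.50, -0.21, -0.01 and -0.08 in HET animals, 0.26, 0.13 and 0.15 in HOM animals and 0.14, 0.10, 0.07 and 0.43 in WT animals. In 4 of the 5 HET animals it lay below every WT animal, and HET female replicate 1 lay inside the WT range. The HET median ranged from -0.45 to -0.23 when 1 animal was left out at a time, with -0.23 reached without WT male replicate 2. Within synaptic libraries 7 of 20 members had a HET minus WT estimate above 0 (median -0.24), and within nuclear libraries 16 of 20 (median 0.21). Junb overlaps an exon of a gene on the opposite strand.

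In the synaptic minus nuclear difference, chromatin regulators other than CHD proteins stood above 0 in HOM animals and near 0 in HET animals. In HOM minus WT 56 of 67 were above 0 with a median of 0.17, and 7 were higher at an unadjusted p under 0.05, against 1.93% of all genes. In HET minus WT 21 of 67 were above 0 with a median of -0.03, which was -0.07 without the animal that has no Cre read, 0.001 without HET female replicate 2 and 0.0019 with DESeq2. The HOM median was 0.06 without HOM male replicate 1 and 0.12 with no filter on low counts. Ezh2, the histone H3 methyltransferase of Polycomb, which overlaps an exon of a gene on the opposite strand, stood at 0.81 (SE 0.28), the histone demethylase Kdm2a at 0.39 (SE 0.15) and the heterochromatin protein Pogz at 0.45 (SE 0.19) in HOM minus WT. The mean over the list was -0.18, -0.23, -0.11, 0.00 and -0.04 in HET animals, 0.08, 0.13 and -0.01 in HOM animals and -0.05, -0.15, -0.06 and -0.11 in WT animals. All 3 HOM animals lay above all 4 WT animals, HOM male replicate 2 by the smallest margin. Of all genes taken singly 2.99% did so, and 27 lists were examined, so this separation is a description. Of the 9 CHD genes 8 were above 0 in HOM minus WT (median 0.14) and 2 in HET minus WT (median -0.08), with Chd1 at 0.44 (SE 0.17) and Chd6 at 0.36 (SE 0.18) in HOM. The HOM median of the CHD genes was 0.05 without HOM male replicate 1 and 0.22 without HOM male replicate 2, and their HET median was -0.13 without the animal that has no Cre read and -0.0045 without HET female replicate 2. Autism risk genes had medians of -0.03 in HET and 0.04 in HOM, splicing factors 0.03 and 0.06, Wnt pathway genes -0.01 and -0.09 and p53 targets -0.03 and 0.03. Without the animal that has no Cre read the HET medians were -0.04 for autism risk genes, -0.0039 for splicing factors, 0.04 for Wnt pathway genes and -0.03 for p53 targets. Without HOM male replicate 1 the HOM median was -0.04 for autism risk genes and -0.11 for splicing factors, so these medians changed sign with 1 animal, as that of p53 targets did without WT female replicate 2 (-0.09).

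Markers of other cell types had positions of their own in this difference. Markers of blood vessel cells had the largest list medians: in HET minus WT 22 of 22 were above 0 with a median of 0.58, and in HOM minus WT 20 of 22 with a median of 0.48. The smooth muscle actin Acta2 stood at 0.68 in HET and 1.18 in HOM, and the endothelial adhesion molecule Pecam1 at 0.71 and 0.84. Acta2 held only 0.22 to 1.25 CPM in synaptic libraries, and its differences ran from -5.66 to -2.33 in HOM and from -5.56 to -3.84 in WT animals. Within synaptic libraries the list median was -0.01 in HET minus WT and -0.42 in HOM minus WT, against -0.47 and -0.77 within nuclear libraries. In synaptic libraries the 22 markers summed to 228 to 260 CPM in HET, 184 to 231 CPM in HOM and 214 to 260 CPM in WT libraries, while nuclear libraries held 736 to 1460 CPM in HET, 596 to 1470 CPM in HOM and 977 to 2430 CPM in WT libraries. None of the markers was at 0 in all libraries. The mean over the list was -2.35, -3.16, -2.21, -2.59 and -2.63 in HET, -1.90, -2.55 and -3.63 in HOM and -2.44, -2.88, -3.94 and -3.25 in WT animals, so the groups overlapped. The HET median was 0.60 without the animal that has no Cre read and 0.27 without WT male replicate 1, and the HOM median 0.05 without HOM female replicate 1 and 1.00 without HOM male replicate 2. Their part in the values of other genes was not tested, and Adamts1, Clic5 and Myo1c have the same sign.

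Glial and interneuron markers were on the lower side of the synaptic minus nuclear difference in HOM animals. In HOM minus WT 0 of 18 astrocyte markers were above 0 (median -0.28), 4 of 19 oligodendrocyte markers (-0.34), 1 of 9 precursor markers (-0.25), 2 of 16 microglial markers (-0.25, with 5 lower at an unadjusted p under 0.05) and 5 of 24 interneuron markers (-0.27, with 6 lower), against 47.5% of all genes above 0 and 2.84% lower at that p. Without HOM male replicate 1 the median was -0.20 for oligodendrocyte and -0.14 for precursor markers, and without HOM female replicate 1 it was -0.18 for interneuron markers. In HET minus WT the medians of these lists lay between -0.11 and 0.07. These were, without the animal that has no Cre read, -0.10 for astrocyte, -0.0068 for oligodendrocyte, 0.09 for precursor, 0.08 for microglial (13 of 16 above 0, against 7 of 16 with it) and -0.0047 for interneuron markers. Trem2, a microglial receptor, stood at -0.54 (SE 0.20), the neuropeptide gene Vip at -0.51 (SE 0.17) and Gjb6, an astrocyte connexin, at -0.46 (SE 0.17) in HOM minus WT. Within nuclear libraries HOM minus WT medians were 0.13 for astrocyte, 0.28 for oligodendrocyte, 0.05 for precursor, 0.23 for microglial and 0.31 for interneuron markers. Within synaptic libraries they were -0.14, -0.03, -0.13, -0.06 and 0.09 in the same order. The lower difference is therefore no lower level in both fractions. Microglia, astrocytes and most interneurons lie outside the lineage that Camk2a-Cre recombines. The 16 microglial markers summed to 832 to 1070 CPM in HOM and 877 to 1090 CPM in WT synaptic libraries, and to 422 to 437 CPM in HOM and 350 to 424 CPM in WT nuclear libraries. In HOM the excitatory neuron markers had a median of -0.12 with 8 of 22 above 0, blood markers 0.05, meningeal markers -0.17 and choroid plexus markers -0.12. The corresponding HET medians were -0.08, 0.31, 0.13 and -0.01, and without the animal that has no Cre read -0.03, 0.35, 0.18 and 0.04. The HOM median of blood markers was -0.17 without HOM male replicate 1, that of meningeal markers -0.41 without HOM female replicate 1 and 0.06 without HOM male replicate 2, that of choroid plexus markers 0.03 without HOM male replicate 1 and that of excitatory neuron markers -0.02 without HOM female replicate 1. The nuclear-retained RNAs had medians of -0.01 in HET (-0.17 without the animal that has no Cre read) and -0.07 in HOM (-0.27 without HOM male replicate 1 and 0.18 without HOM male replicate 2), and per-animal means from -2.12 to -1.04 in HET, -2.25 to -1.40 in HOM and -1.94 to -1.06 in WT animals.

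**Figure D4:**
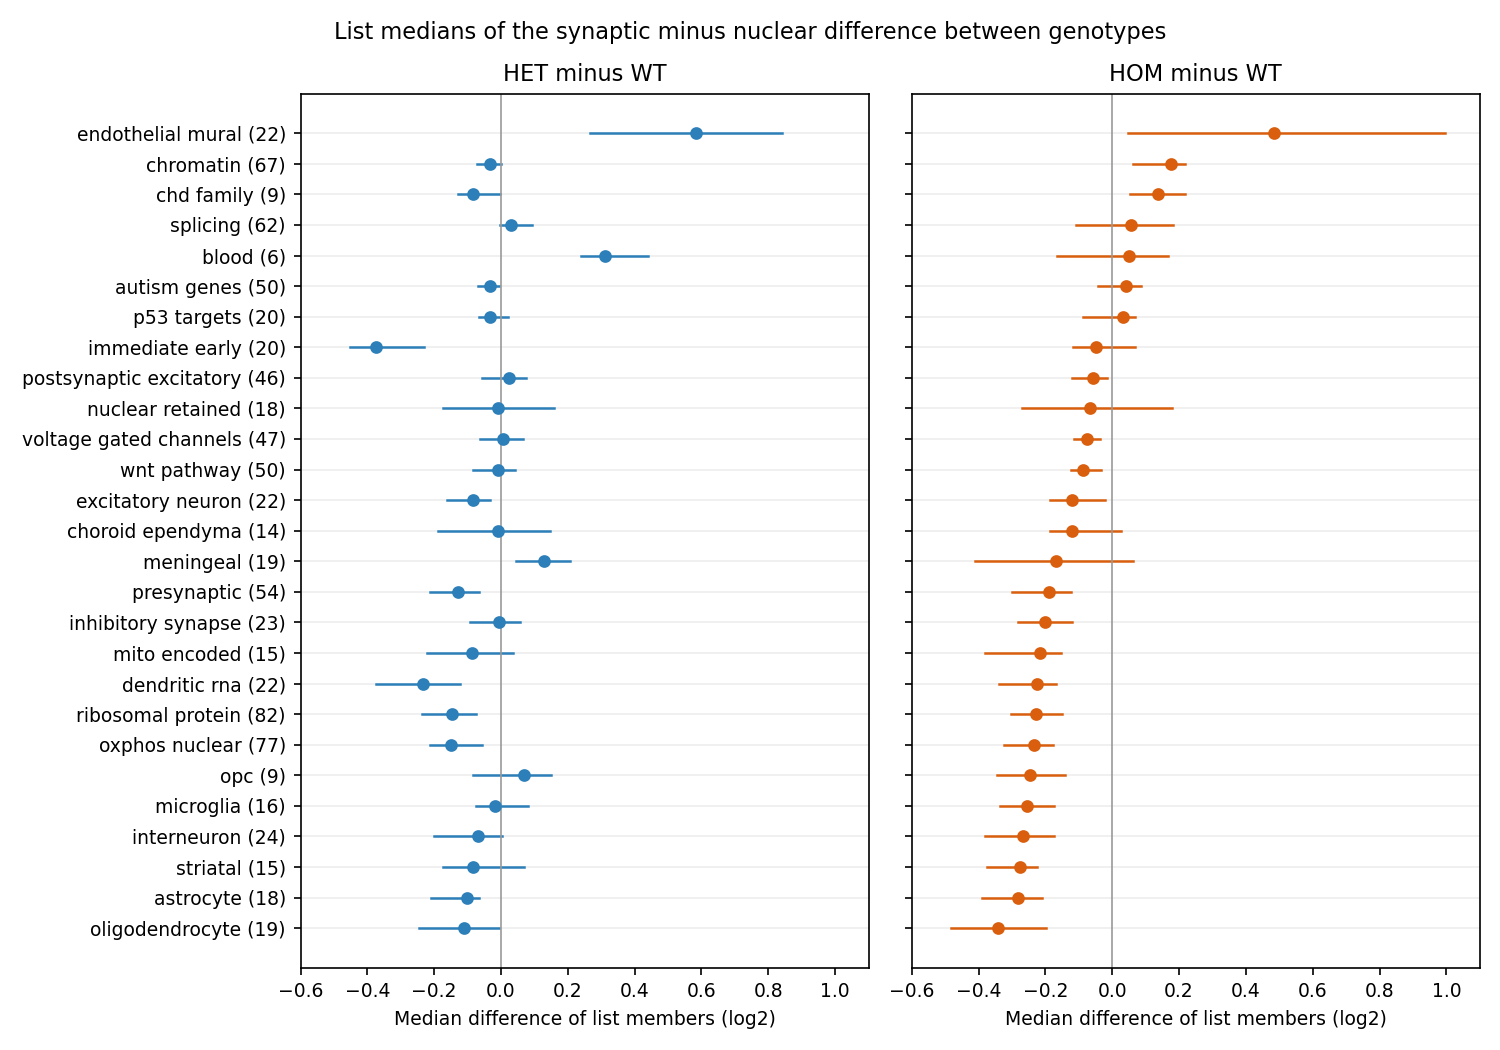
Median interaction estimate (log2, x axis) of each of 27 gene lists, with the number of members in brackets, HET minus WT on the left and HOM minus WT on the right. The dot is the value over all 12 animals and the line runs from the lowest to the highest value when 1 animal is left out. Vessel cell markers stand highest (0.58 and 0.48), immediate early genes are lowest in HET (-0.37) and chromatin genes are above 0 in HOM (0.17).

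The gene lists differ in transcript length, so the interaction was also described by exonic length over 12712 protein-coding genes in 5 groups of nearly equal size. From the shortest group (204 to 2760 bases) to the longest (8061 to 123179 bases) the HOM minus WT median was -0.17, -0.09, -0.03, 0.01 and 0.06, and the HET minus WT median was -0.07, -0.04, -0.01, -0.0045 and -1e-04. The median of the longest minus that of the shortest group within an animal was -0.21, -0.25, -0.07, 0.20 and -0.13 in HET animals, 0.02, 0.16 and 0.01 in HOM animals and -0.09, -0.27, -0.07 and -0.28 in WT animals. All 3 HOM animals lay above all WT animals, and the only HET animal above 0 was the male with no Cre read. In HOM minus WT the synaptic libraries ran from -0.01 in the shortest to 0.02 in the longest group and the nuclear libraries from 0.16 to -0.03. Among lists on the lower side in HOM, median exonic length was 1754.5 bases for ribosomal protein genes, 1756 for respiratory chain genes and 2324.5 for microglial markers, but 6686 for inhibitory synapse genes, 6960.5 for dendritic mRNAs and 7424.5 for presynaptic genes. Among lists above 0 in HOM it was 4374.5 for vessel markers, 9180 for chromatin genes and 13786 for CHD genes, and it was 12953.5 for autism risk genes, whose HOM median was 0.04. Of other lists on the lower side it was 955 for mitochondrially encoded transcripts, 3400.5 for interneuron, 3639 for oligodendrocyte and 4176.5 for astrocyte markers. It was 7556.5 for excitatory postsynaptic genes and 9458 for voltage-gated channels, whose HOM medians were -0.06 and -0.07. The part of transcript length in the list medians was not tested.

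**Figure D5:**
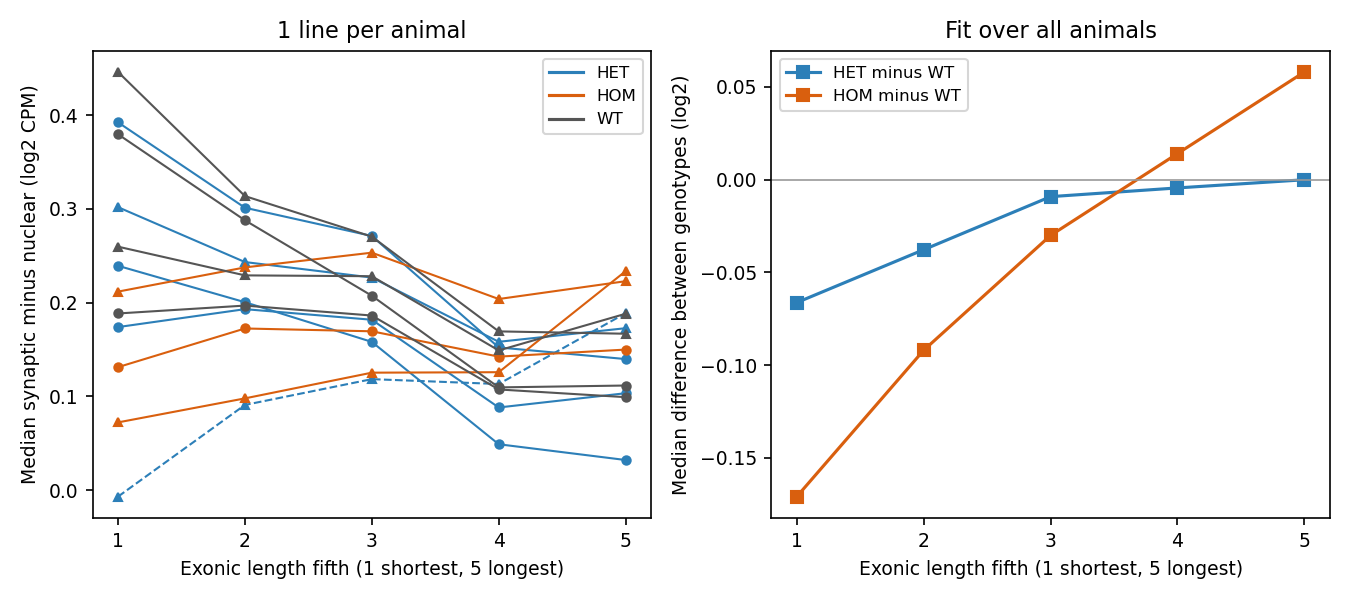
Interaction by exonic length of protein-coding genes, from the shortest (1) to the longest (5) of 5 length groups. Left, the median synaptic minus nuclear log2 difference of each animal, 1 line per animal (dashed, the HET male with no Cre read). Right, the median HET minus WT and HOM minus WT estimates, of which HOM minus WT runs from -0.17 in the shortest to 0.06 in the longest group.

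The same interaction was set against that of the germline line of the series, in which heterozygous animals carry a constitutive Chd8 deletion in all cells. After leaving out 1 of 15 germline pairs whose libraries differ in sex markers, 5 conditional HET and 4 conditional WT animals were fitted with 5 germline HET and 9 germline WT animals over 22801 genes. The difference between the lines called 0 genes (0%) in edgeR, with 987 at an unadjusted p under 0.05 and no other tool run. For Chd8 the HET minus WT estimate was -0.10 (SE 0.25) in the conditional and -0.91 (SE 0.21, adjusted p = 0.2) in the germline line. The difference was 0.82 (SE 0.33, unadjusted p = 0.019 and adjusted p = 0.761 in edgeR). Without 2 germline WT animals whose synaptic libraries had a nuclear profile the germline estimate was -0.67. The difference was then 0.57 (SE 0.21, unadjusted p = 0.011, adjusted p = 0.967 in edgeR). Without the conditional HET male that has no Cre read the difference was 0.72 (unadjusted p = 0.046, adjusted p = 0.89 in edgeR). The lines were sequenced on different instruments, which cannot be told apart from the line. Among the germline pairs no WT animal shares a batch label with the HET males, and no batch term was fitted.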

How the data were processed

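Raw counts of reads per gene, with a column for each library, were used as the authors deposited them. Per the submitters' processing notes, alignment to GRCm38 used STAR 2.5.4b and counting used featureCounts 2.0.0. The strand setting and the annotation are not given in the sources used here. Even counts made up 60.1 to 69.6% of counts from 10 to 200, and all 22 Cre counts above 0 were even, so read mates seem to count singly in many genes, and totals are taken as reads. Of 54838 genes in the table, a symbol was found for 54723 and none for 115. The Cre transgene, with up to 0.00135% of a library, entered neither totals nor tests.

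Groups come from sample titles. The 2 libraries of an animal were joined by the animal number in the library names. The deviations of the 2 libraries from their group means correlated at 0.0597 to 0.497, over 0.1 in 11 of 12 animals (13614 genes). Libraries of a group differed by more than sampling noise in every pairing (chi-square per degree of freedom at least 19.2).

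Interactions were fitted with the quasi-likelihood test in edgeR 4.0.16 under R 4.3.3, with animal as a block, fraction and fraction by genotype, TMM over the 24 libraries, filterByExpr and Benjamini-Hochberg adjustment at 0.05. A standard error is the fold change over the root of its F statistic. Log2 CPM uses a prior count of 2. Alternatives were DESeq2 1.42.0, limma 3.58.1, RLE scaling, TMM within each fraction, no low-count filter, a sex term, no animal block, a nuclear-retained covariate, and leaving out each animal. Chd8 was also tested with exact permutation tests. Coordinates, exon overlaps and exonic lengths are from GENCODE M21 (GRCm38), and figures were drawn with matplotlib 3.10.9.

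Named genes are Chd8, 3 compartment landmarks, called genes or, where there were none, the 5 of smallest p each way with an ordinary symbol and a mean log2 CPM of 1 or more, and 2 members of smallest HOM minus WT p of each list. Some genes under this rule are not reported here. The animals, the lists and the rule were chosen with earlier results of these data known. The tests were tried on simulated data.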

Additional observations from a re-analysis of the deposited data

Results flagged for a closer look

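Values of 1 animal that stood apart from its own group were looked for in 126 groups of 4 or 5 animals (the named genes and the list means), and 5 were found, where chance gives about 1 in 20. Of these, 3 belong to HET female replicate 2. Its synaptic minus nuclear difference was -0.28 for Abi3bp, against 0.56 to 0.85 in the other HET animals. It was 0.70 for Pcp4, against 0.40 to 0.45. Its mean over the astrocyte markers was 0.71, against 0.07 to 0.22. The other 2 belong to WT male replicate 1, with 0.92 for Bola2 against 0.41 to 0.49 in the other WT animals, and -0.28 for Greb1l against -0.85 to -0.80.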

How the results depend on the processing

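In HET minus WT, HOM minus WT, HOM minus HET and the trend, 0 genes were called with DESeq2, RLE scaling, TMM within each fraction, a fraction by sex term, limma on per-animal differences and limma with a nuclear-retained covariate. With no filter on low counts (37233 genes) 10, 8, 13 and 10 genes were called, all of them also tested with the filter, among them Lars2 (HOM minus WT 1.87, adjusted p = 2.09e-19 against 0.891) and, in HET minus WT, Malat1 and Xist. The cause was not tested. Leaving out 1 animal at a time, the counts were 0 to 0, except 0 to 1 in HOM minus HET (C130023A14Rik without HOM male replicate 1, which was named after its value was seen). The genes at an unadjusted p under 0.05 then ranged from 440 to 1180 in HET minus WT, from 602 (without HOM female replicate 1) to 1831 (without WT female replicate 1) in HOM minus WT, and from 750 to 1449 in HOM minus HET. With no replicate block, so without the pairing of the libraries of an animal, 0 genes were called (631, 1011, 857 and 958 at an unadjusted p under 0.05) and Chd8 stood at -0.10 in HET and 0.03 in HOM.

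The HOM minus WT estimate of Chd8 (0.023) was -0.031 with no filter and -0.0078 with the fraction by sex term, and ranged from -0.21 to 0.13 when 1 animal was left out, including -0.022 without WT male replicate 1, -0.011 without HET female replicate 3 and -0.023 without WT female replicate 2. The HET estimate ranged from -0.19 to -0.0045. For named genes 793 of the recomputed values kept their side of the threshold and direction, 7 passed the threshold with no filter, and 0 changed direction. Of the list medians 1072 moved by less than the spread between animals and 8 moved by more. The alternative without the HET male that has no Cre read in the comparison with the germline line, and the recomputed list medians, were chosen after seeing the data. All intervals rest on 3 to 5 animals a group.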

Other observations

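Xist, the non-coding RNA that coats the inactive X chromosome in the nucleus, was higher in the synaptic than in the nuclear library in 5 of the 6 females. Its level was 109.2, 40.5 and 60.3 CPM in HET, 59.0 CPM in HOM and 164.6 and 214.5 CPM in WT synaptic libraries, against 35.04, 56.5 and 11 CPM in HET, 8.59 CPM in HOM and 16.6 and 57.1 CPM in WT nuclear libraries. The exception was HET female replicate 2. The exons of Xist overlap those of 5 other genes, among them Tsix on the opposite strand, and the strand setting of the counts is unknown. Malat1 and Meg3, also RNAs of the nucleus, were lower in the synaptic library in these same females.

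Within a single fraction no gene was called in either genotype with edgeR. Yet fewer genes were below an unadjusted p of 0.05 in HOM synaptic (1024 genes) than in HOM nuclear libraries (2522 genes). The same held in HET synaptic (797 genes) and HET nuclear libraries (1188 genes). Over the 21577 genes tested, an even spread of p-values gives fewer genes than either nuclear count and more than either synaptic count. The excess was largest in HOM nuclear libraries. The smallest adjusted p was 0.937 in HOM synaptic and 0.418 in HOM nuclear libraries.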
